A study of Mus musculus with 8 samples.

Results

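The measurements concern an interval of chromosome 2, from 116000000 to 128000000 in the mm9 mouse genome build, that surrounds Gatm, the gene of the enzyme that makes the creatine precursor guanidinoacetate. The interval was chosen from the strain difference described here. Its members were all non-control probes whose position starts inside it, without those of Gatm, Vps39, Jmjd7, B2m, Ckmt1 and the Pla2g4 genes, which left out 18 probes. There were 388 member probes among the 56605 probes of the array. They carried 226 gene names, and 126 of these names had a single member probe. The probes came from an Agilent 1-colour expression array that was hybridized with brain RNA (whole cerebral cortex together with striatum). It was taken from 4 males of the BTBR/R strain (the BTBRTF/ArtRbrc subline, an inbred strain studied as a model of autism spectrum disorder) and from 4 B6 males (C57BL/6J), with 1 mouse per array. The mice were 4 months old, except for BTBR/R replicate 1, which was 6 months old. Both strains were untreated and carried no engineered allele. According to the authors, BTBR/R mice carry spontaneous mutations of brachyury (T), of Itpr3 (tufted) and black and tan. The comparison is therefore of whole strains.

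Inbred strains differ in long blocks of DNA in which neighbouring genes are inherited together, and a sequence difference inside such a block can alter the RNA of a gene in its own neighbourhood. Messenger RNAs of a gene can also differ in their exons and ends, so that probes of the same gene may measure different transcripts. The interval is rich in genes and holds enzymes of leucine, sulfide, galactosamine and inositol phosphate metabolism, together with genes of cell division, transcription and synaptic signalling.

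The probes are 60 bases long, and those printed here belong to genes whose probes are compared with each other, or with a close neighbour, in the results. They are written from 5′ to 3′ on the strand of the gene, with the letters AATAAA or ATTAAA, the usual polyadenylation signals, in capitals. The search read only the sense strand of the probes. A probe of Ivd and a probe of Ppip5k1 whose letters leave reading frames open are printed whole. The others are given as 30 bases, which are bases 28 to 57 for Lcmt2, 31 to 60 for Sqrdl and 1 to 30 for the rest.
Ivd, chr2:118703404-118703463, plus strand: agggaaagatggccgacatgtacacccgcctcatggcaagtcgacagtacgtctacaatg
Ivd, chr2:118706998-118707057, plus strand: tctgtatatttctctagacaccctgtggct
Ivd, chr2:118708357-118708416, plus strand: atggtttaggtagtaatgactttagtggct
Ppip5k1, chr2:121173377-121174260, minus strand, across a splice junction: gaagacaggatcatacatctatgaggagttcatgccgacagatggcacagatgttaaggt
Ppip5k1, chr2:121172975-121173034, minus strand: atgaagtactatgatgactgtgccaagatt
Ppip5k1, chr2:121162146-121162205, minus strand: cttatctcagtgccatctcagagctgaact
Lcmt2, chr2:120964260-120964319, minus strand: tacgttcagggcAATAAAgaatggacttga
Sqrdl, chr2:122635222-122635281, plus strand: tccaagtgaaatAATAAAactctattttct
Galk2, chr2:125809174-125809233, plus strand: cttacatgtatttttatgaatcagagacaa
Fam227b, chr2:125809364-125809423, minus strand: caatcatcatcgtcatttcctactatatca
The first and the last Ivd sequence, the Ppip5k1 sequence at chr2:121172975-121173034 and the sequences of Lcmt2, Sqrdl and Galk2 belong to probes that were called lower in BTBR/R mice, and that of Fam227b to a probe that was higher. The Galk2 and Fam227b probes lie on opposite strands with 130 bases between them. Of the 388 members, 52 (13.4%) held either signal, as did 13.4% of all probes.

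A probe was called when its limma adjusted p was below 0.05 and its difference at least 2-fold, and differences are BTBR/R minus B6 on the log2 scale of the scaled signal, which sets each processed signal against the 75th percentile of the same array. Calls were made for 61 members with a higher and 26 with a lower signal in the BTBR/R strain, where 20.2% of all probes were called higher and 2.27% lower. Because the interval was chosen from this comparison, these counts describe it and nothing is drawn from them. Detection, the scanner software's mark for a spot well above background, covered between 64.5% and 66.8% of all probes in B6 mice but between 53.5% and 57.2% in BTBR/R mice. The lowest detected signal was 14.5 to 17.8 for the B6 mice, and for BTBR/R mice it was 36.1 to 47.1. All B6 arrays occupied column 1 of the slide and all BTBR/R arrays column 2, and effects of strain and of column cannot be told apart.

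Detection divided the calls. Of the 61 members called higher, 48 were detected on no array of either strain, out of 81 members so undetected (59.3%), where the share over the array was 67.7% of 14874 undetected probes. Of the 26 called lower, 15 were detected on every B6 array and on no BTBR/R array, among 30 members with that detection. The same held for 730 of 3485 probes (20.9%) over the whole array. Among the 202 members detected on all 8 arrays, 2 were called higher and 10 lower, against 1.04% and 1.16% of the 28547 probes of the array detected in the same way. With normexp background correction, in which 0.995% of all probes were called in either direction, 8 members were called, 2 higher and 6 lower. Of these 8, 7 were detected on all 8 arrays.

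**Figure D1:**
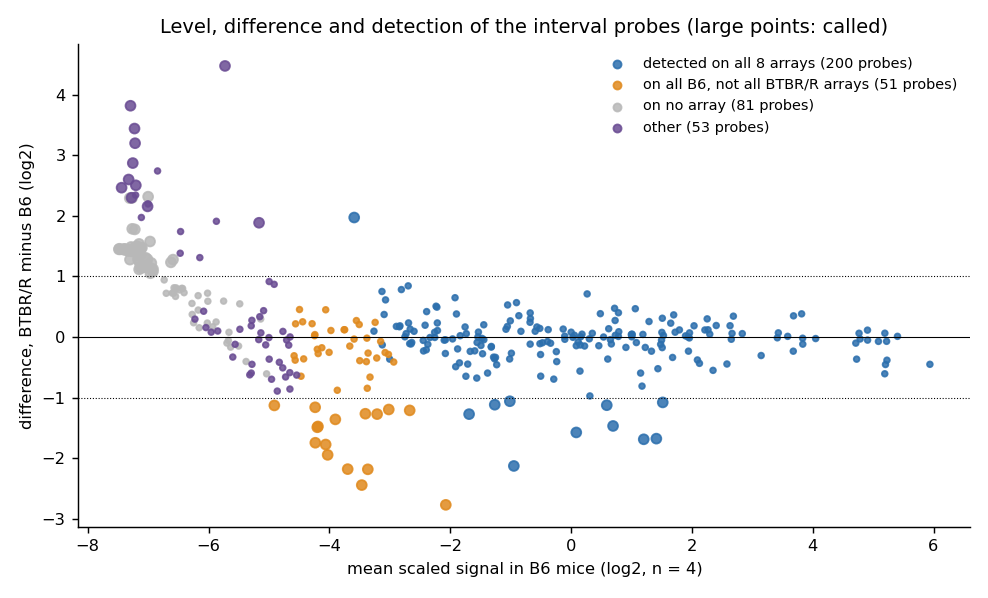
The mean scaled signal in B6 mice (x axis, log2, n = 4) against the BTBR/R minus B6 difference (y axis, log2) for 385 of the 388 member probes, colored by the arrays on which they were detected, with large points for called probes. Dotted lines mark a 2-fold difference. The 48 undetected probes called higher lie at the dim left end. Apart from Exd1, at -3.59 in B6 mice, the 11 called probes drawn that were detected on all 8 arrays lie among brighter signals.

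By position, the called members detected on all 8 arrays reached from Tmco5 at 116718168 to Galk2 at 125809174, over 9.09 Mb. The megabase that starts at 118 Mb held 5 of the 12 among 28 detected probes. That at 120 Mb held 2, those at 119, 121, 122 and 125 Mb each held 1, and the last was that of Tmco5 in the first megabase. No called probe that was detected on all 8 arrays lay among the 4 detected probes at 117 Mb, the 8 at 124 Mb, the 19 at 126 Mb or the 24 at 127 Mb. In the 12 Mb on either side, 2 of 91 detected probes before the interval and 2 of 156 after it were called.

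A smaller difference, of at least 0.5 on the log2 scale with no test, was found for 33 of the 202 detected members (16.3%) and for 8.53% of detected probes over the array. By this measure the megabase at 118 Mb stood highest within the interval, with 11 of 28 detected probes. The share was 14.8% of 27 probes at 119 Mb, 14.3% of 35 at 120 Mb, 21.2% of 33 at 121 Mb and 27.3% of 11 at 125 Mb. In the first megabase it was 25.0% of 4 probes. From 126 Mb to the end of the interval, none of 43 detected probes differed by this much. The differences did not point 1 way. Of the 202 detected members, 105 had a difference below 0 and 97 above 0, and their median was -0.013, beside 0.0015 over all detected probes. The median size without sign was 0.17 for the members and 0.12 over the array.

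**Figure D2:**
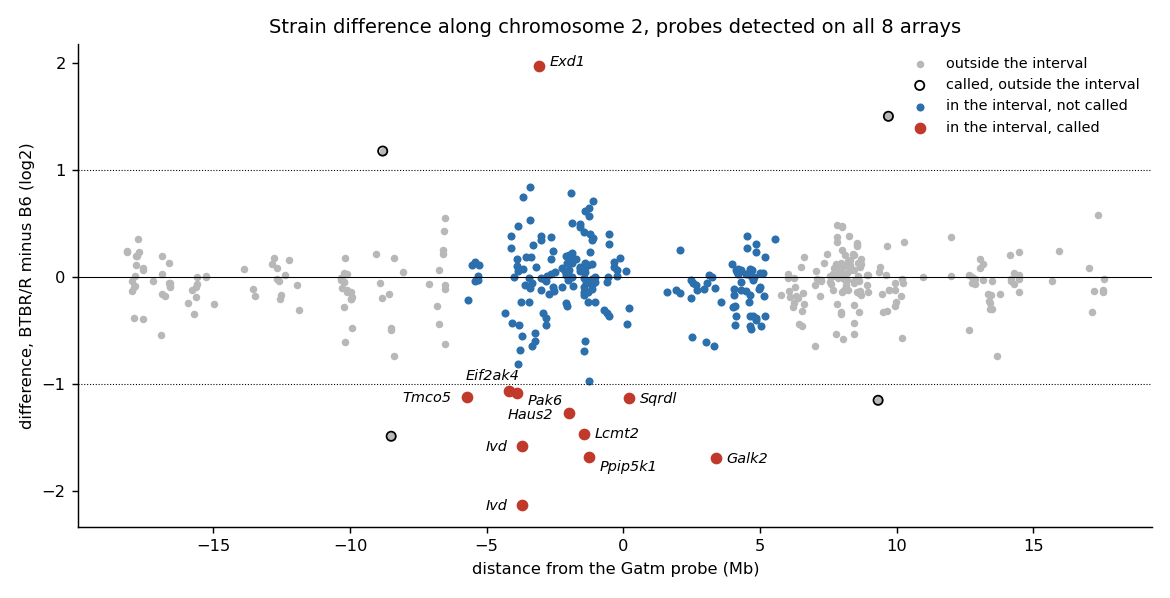
BTBR/R minus B6 differences (y axis, log2) of probes detected on all 8 arrays, by their distance from the Gatm probe (x axis, Mb), for the interval and the 12 Mb on either side; the probes left out by name are not drawn. Red points are 11 of the 12 called members with their genes, and open circles the 4 called probes outside. The dotted lines mark a 2-fold difference, and the called members lie between -5.70 and 3.39 Mb.

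**Figure D3:**
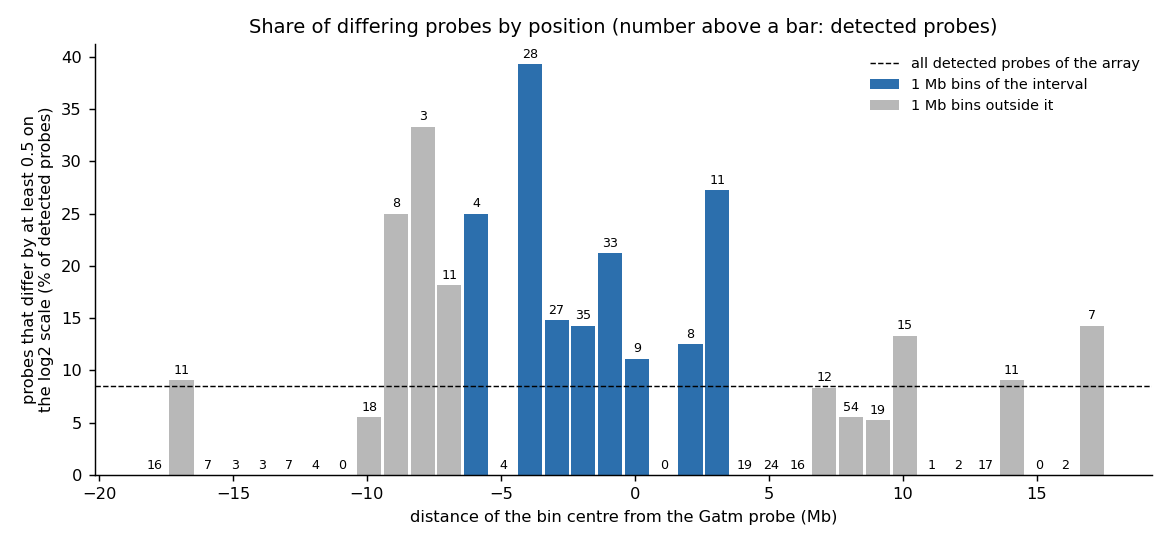
The share of detected probes that differed by at least 0.5 on the log2 scale (y axis, %) in bins of 1 Mb, by the distance of the bin centre from the Gatm probe (x axis, Mb). The number above each bar is the number of detected probes, the dashed line is the share over the array (8.53%), and bins of few probes give coarse shares.

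Genes of metabolism held 6 of the 10 lower probes detected on all 8 arrays, and 2 of the 6 were of Ivd. The list of these genes, made with earlier results known, held 36 of the 202 detected members. Since the samples are pieces of whole tissue, fewer cells that make an RNA and less of it per cell cannot be told apart in any of these values. Sequence differences between the strains under a probe were not examined, and their part in these values was not tested. Ivd encodes isovaleryl-CoA dehydrogenase, a mitochondrial enzyme of leucine breakdown. Its probe at 118703404 had scaled signals of -0.92, -0.95, -0.87 and -1.05 in B6 mice and -3.03, -3.16, -3.002 and -3.10 in BTBR/R mice. Mice of each strain lay close together and the strains did not overlap, with a difference of -2.13 (standard error 0.058), a 4.37-fold fall. With normexp background correction this difference was -1.43. At 118708357 the Ivd signal was 0.087 ± 0.12 in B6 mice and -1.49 ± 0.073 in BTBR/R mice (SD, n = 4 each), a difference of -1.57. The third Ivd probe, which lies between them, was not called, with a difference of -0.55.

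Ppip5k1 makes inositol pyrophosphates, signalling molecules built from inositol phosphates. The probe at 121172975 gave 1.40, 1.39, 1.40 and 1.45 in B6 mice and -0.17, -0.30, -0.22 and -0.36 in BTBR/R mice, with no overlap and a 3.20-fold fall. Galk2 is the kinase of N-acetylgalactosamine. At 125809174 it gave 1.25, 1.14, 1.16 and 1.26 in B6 mice and -0.45, -0.50, -0.55 and -0.44 in BTBR/R mice, a 3.22-fold fall and again without overlap. Its other probes differed by -0.65 and -0.10.

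Lcmt2 takes part in making the modified base wybutosine of phenylalanine transfer RNA. Its probe at 120964260 gave 0.69, 0.81, 0.55 and 0.73 in B6 mice and -0.91, -0.86, -0.66 and -0.65 in BTBR/R mice, a difference of -1.47, and the other probe differed by -0.69. Sqrdl, now named Sqor, encodes the mitochondrial oxidoreductase that clears hydrogen sulfide. Its probe at 122635222 gave 0.57, 0.63, 0.65 and 0.52 in B6 mice and -0.60, 0.05, -0.74 and -0.85 in BTBR/R mice. BTBR/R replicate 2 stood nearest to the B6 mice, the strains did not overlap, and the difference was -1.12, or -0.98 and no longer called with normexp background correction. The second detected probe of Sqrdl differed by -0.29.

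The remaining lower probes belonged to genes of other roles. Pak6, a p21-activated kinase of neurons, gave 1.48, 1.503, 1.496 and 1.59 in B6 mice and 0.34, 0.44, 0.52 and 0.45 in BTBR/R mice, a 2.11-fold fall. Eif2ak4, the kinase that senses amino acid shortage and slows translation, gave -1.14, -0.90, -0.91 and -1.11 in B6 mice and -1.95, -1.99, -2.28 and -2.07 in BTBR/R mice at 118253890. This fall of 2.08-fold lay close to the threshold, and without BTBR/R replicate 3 it was no longer called. Haus2, a subunit of the augmin complex that builds the mitotic spindle, differed by -1.27 (B6 -1.69 ± 0.078, BTBR/R -2.96 ± 0.22, SD, n = 4 each). Tmco5 gave -1.26 ± 0.18 in B6 mice and -2.38 ± 0.073 in BTBR/R mice (SD, n = 4 each). None of these genes had overlapping strains at the called probe. With normexp background correction the calls of Eif2ak4 (-0.69), Haus2 (-0.71) and Tmco5 (-0.81) ended.

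**Figure D4:**
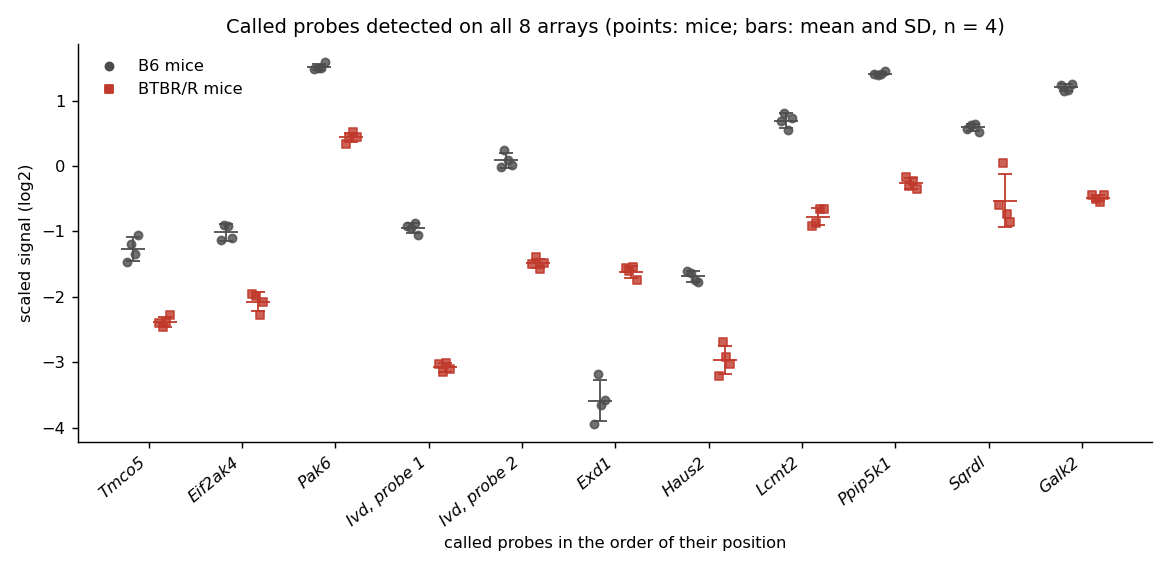
Scaled signals (y axis, log2) of 11 of the 12 called member probes detected on all 8 arrays, in the order of their position (x axis). Each point is 1 mouse, and bars give the mean and SD of 4 mice per strain. B6 mice lie above BTBR/R mice for 10 probes and below them for Exd1, and the widest group drawn is Sqrdl in BTBR/R mice (SD 0.41).

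Exd1 had a higher probe that was detected on all 8 arrays. Exd1, a partner of the piRNA pathway of the germ line, gave -3.94, -3.18, -3.66 and -3.58 in B6 mice and -1.56, -1.61, -1.55 and -1.75 in BTBR/R mice, a 3.93-fold rise without overlap. The difference of 1.97 on the log2 scale became 1.10 with normexp background correction.

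Fam227b, which lies on the other strand from Galk2, was called higher. Its probe at 125809364 gave -4.80, -6.01, -6.35 and -5.76 in B6 mice, where it was detected on 1 of the 4 arrays. In BTBR/R mice it gave -1.54, -0.84, -1.40 and -1.24 and was detected on all 4 arrays. The signal was at least 14.4-fold higher in BTBR/R mice, taking the detection limit in place of dimmer B6 signals. The neighbouring Galk2 probe, 130 bases away, was 3.22-fold lower in the same mice. This Fam227b probe was also called with normexp background correction, at 2.07 on the log2 scale, which is a smaller rise than the bound, so that the bound holds for the main scaling only.

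Genes that were detected on every B6 array but not on every BTBR/R array have only a lower bound for their fall, which sets the B6 mean against a BTBR/R value that is never taken below the detection limit of each array. There were 16 such lower probes. Spata5l1, which encodes an AAA-type ATPase, had the largest bound and lay nearest to Gatm of all such called probes, 38.5 kb from the Gatm probe. It gave -2.24, -2.23, -1.91 and -1.92 in B6 mice and -5.98, -4.003, -4.16 and -5.22 in BTBR/R mice, where it was not well above background, and was at least 3.104-fold lower. Eif2ak4 at 118277964, detected on 1 BTBR/R array, was at least 1.96-fold lower. With normexp background correction the differences were smaller than these bounds, at -0.96 for Spata5l1 and -0.40 for Eif2ak4 on the log2 scale.

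For the others the bound was smaller. Adal, an adenosine deaminase-like enzyme, was at least 1.60-fold lower, and Spint1, a membrane inhibitor of serine proteases, at least 1.39-fold, while a Spint1 probe detected on all 8 arrays differed by -0.65. The bound was at least 1.27-fold for Rpap1, a factor in RNA polymerase II assembly, 1.23-fold for Tmco5 at 116713994, 1.18-fold for Tmem62 and 1.01-fold for Mall. Another Rpap1 probe, detected on all 8 arrays, was not called and differed by -0.38. No fold can be given for Bub1b, Ccdc32, 9130007G19Rik, 6330405D24Rik, BE946531, Duoxa1 and AA467197, whose B6 signals lay below the BTBR/R detection limit. A Ccdc32 probe detected on all 8 arrays was not called and differed by 0.19. A second probe of 9130007G19Rik was called higher but was detected on no B6 array and on 1 BTBR/R array, and no fold can be given for it. None of the 16 probes was called with normexp background correction, and the differences of Adal (-0.29) and Spint1 (-0.39) then also lay under their bounds.

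The genes nearest to Gatm with a probe detected on all 8 arrays were mostly uncalled. On the lower side, Eif3j1, a subunit of a translation initiation factor, differed by 0.31 at its probe nearest to Gatm and by -0.36 at the other detected probe. The difference of Sord, which encodes sorbitol dehydrogenase, was 0.14, and Shf differed by 0.07 and 0.02 at its 2 probes and Bambi-ps1 by 0.18. On the upper side, the zinc transporter gene Slc30a4 differed by 0.06 and Bloc1s6, a gene of lysosome-related organelle traffic, by -0.43, before the called Sqrdl probe. The transcript AK039753, farther up, differed by -0.14. At the lower end of the interval, the last probe outside, of LOC105242515, differed by -0.63, and the first inside, of Tmco5, was at least 1.23-fold lower, being not well above background on the BTBR/R arrays. The first inside that was detected on all 8 arrays, also of Tmco5, differed by -1.12. At the upper end, the last probe inside, of Bcl2l11, a gene of the cell death machinery, differed by 0.35. The first probe outside, of a long intergenic RNA, was detected on all 4 B6 arrays and on 1 BTBR/R array. The first outside that was detected on all 8 arrays, of Gm14005, differed by -0.17.

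Probes of the same gene often disagreed. Of the 48 genes of the interval with at least 2 probes detected on all 8 arrays, 24 had differences of the same sign, where the share was 57.6% over the array. The probes of a gene lay at least 1 log2 unit apart in 6 genes, among them Eif2ak4, Galk2, Ivd, Ppip5k1 and Tubgcp4. These were 12.5% of the 48 genes, where 3.95% of 6508 genes over the array had such a range. No gene among the 48 had all its detected probes called, and 7 had at least 1, against 25 and 252 of the 6508.

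Ppip5k1 showed the widest range, 2.33 log2 units over 5 probes. In the direction of transcription, its first probes differed by -0.97 and -1.68, and the next, 11.2, 19.2 and 36.7 kb from the first, by 0.65, 0.57 and 0.12. The lower values were thus at the 5′ end and the higher ones further along. Of the Eif2ak4 probes detected on all 8 arrays, the 5′ one differed by -1.06 and the one 47.0 kb further along by 0.27. The most 5′ probes of Tmem62 and Adal have only the bounds given above, of at least 1.18-fold and 1.60-fold lower, and the later probes differed by 0.10 and 0.09 in Tmem62 and by -0.09 and 0.08 in Adal. The order was the other way in Sqrdl, Lcmt2 and Galk2, where the called probe was the most 3′. Over the 13 genes that held a call and had at least 2 probes detected on every B6 array, every such probe was called for 1 gene, Tmco5, of which 1 probe was not well above background in BTBR/R mice.

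**Figure D5:**
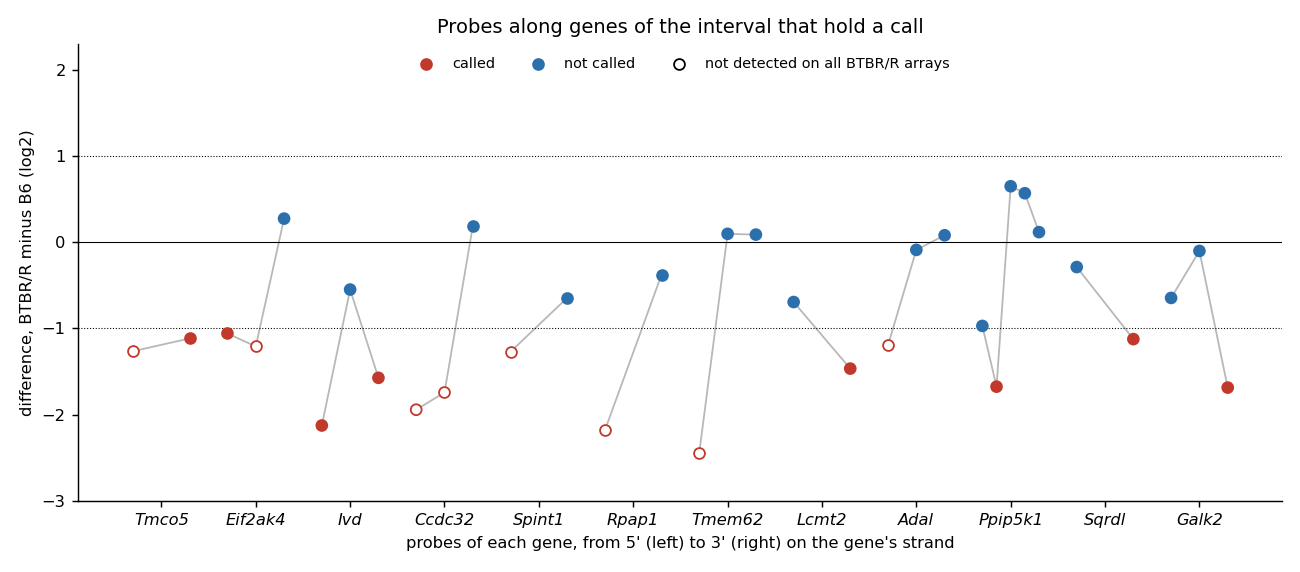
BTBR/R minus B6 differences (y axis, log2) for 33 probes of 12 of the 13 genes that held a call and had at least 2 probes detected on every B6 array, drawn from 5′ to 3′ on the strand of each gene and evenly spaced (x axis). Red points are called, and open points were not detected on every BTBR/R array, so that their measured differences have at most a bound. Among the filled points, the sign turned along the gene in Ppip5k1, Eif2ak4 and, between values near 0, Adal.

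Between the called probes lay 21 detected probes that differed by at least 0.5 without a call, 9 higher and 12 lower. The ones named here were chosen after their values were seen. Gchfr, the regulator of the enzyme that starts tetrahydrobiopterin synthesis, gave -2.21, -3.06, -2.65 and -2.86 in B6 mice and -1.83, -1.80, -1.85 and -1.92 in BTBR/R mice, a difference of 0.84. Replicate 1 stood highest among the B6 mice, and without it the difference was called. Dnajc17, on the other strand with 246 bases between the probes, was also higher, by 0.53. Here opposite-strand neighbours moved the same way, unlike Galk2 and Fam227b. Inafm2 differed by -0.81 and Mfap1a, a splicing factor, by 0.71 and, at a second probe, 0.37. Tubgcp4, a subunit of the gamma-tubulin ring complex, had probes of both signs and differed by 0.61 at 121019715 and by -0.59 at 121024446. The first of these values rested on BTBR/R replicate 2, at -1.33, while the other BTBR/R mice gave -3.09 to -2.64 and the B6 mice -3.12 to -2.99.

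By role, calls among probes detected on all 8 arrays were spread over several lists. The lists were made with earlier results known, so their counts are a description and nothing is drawn from them. Mitochondria and metabolism had 6 lower of 36 probes, with a median difference of -0.11, and 30 were not called, where 4.95% of the detected members and 1.16% of detected probes over the array were lower. Haus2 was called lower in the list of cell division and DNA repair. Chromatin, transcription and RNA had 1 higher (Exd1) of 24, and translation and protein turnover 1 lower (Eif2ak4) of 13. Neuronal signalling, cytoskeleton and excitability, the largest list, had 1 lower (Pak6) of 44. No call fell among the 21 probes of membrane traffic and lysosome, the 6 of extracellular matrix and growth factors or the 5 of cell death. Of 35 detected probes in no list, 1 (Tmco5) was called.

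The genes with the highest signal in each list mostly differed little. Tyro3, a receptor tyrosine kinase of neurons, had 5.40 ± 0.06 in B6 mice and 5.42 ± 0.05 in BTBR/R mice (SD, n = 4 each). Trp53bp1, a factor of DNA break repair, differed by -0.03, Rmdn3, a tether between mitochondria and endoplasmic reticulum, by -0.01, Rtf1, a cofactor of RNA polymerase II elongation, by -0.02, Serf2 by -0.07 and Usp50 by 0.06. Sppl2a, an intramembrane protease of lysosomes, differed by -0.12. The semaphorin gene Sema6d differed by 0.26 at its brightest probe and by -0.12 and -0.15 at the other detected probes. Beside Spint1 and Ivd, given above at -0.65 and -0.55, Itpka, the inositol trisphosphate kinase of dendritic spines, and Mal, a proteolipid of myelin, differed by -0.45, and Snrnp200, a helicase of the spliceosome, by -0.36. Itpka gave 5.81, 5.91, 5.97 and 6.07 in B6 mice and 5.44, 5.39, 5.53 and 5.60 in BTBR/R mice, without overlap but under 2-fold.

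The called probes had few other features in common. Of the 12 detected on all 8 arrays, 9 lay on the plus strand, as did 199 of all 388 members. Their median GC content was 38.3%, and it was 41.7% for the detected members and 43.3% for all detected probes. An Ensembl transcript alone was the target of 3 of the 12 (25.0%), against 14.4% of the detected members and 11.1% of detected probes. Among 29 called members that every mouse of 1 strain or the other detected, 5 (17.2%) held a polyadenylation signal, beside 14.9% of the members and 15.2% of the probes of the array that were detected on all 8 arrays.

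Markers of the tissue were present on every array. All 32 genes listed as markers of cortical excitatory neurons, striatal projection neurons, oligodendrocytes, astrocytes, microglia, endothelium and red blood cells were detected on all 8 arrays, and 2, both of red blood cells, were called, lower in BTBR/R mice. The summed red blood cell signal was 6.11 to 7.77 in B6 mice and 5.53 to 5.84 in BTBR/R mice. The sums of microglial (4.28 to 4.36 against 3.82 to 3.97), endothelial (3.85 to 3.96 against 3.47 to 3.76) and astrocytic markers (8.18 to 8.36 against 7.86 to 8.06) were also lower in BTBR/R mice without overlap. Those of striatal projection neurons (5.89 to 6.03 against 5.83 to 6.03) and cortical excitatory neurons (4.30 to 4.56 against 4.39 to 4.599) overlapped, and those of oligodendrocytes met at their ends (7.41 to 7.74 against 7.27 to 7.41). The part of these shifts in the differences of the interval was not tested.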

How the data were processed

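RNA of each mouse was labeled with Cy3 and hybridized to 1 array. The authors deposited the intensity values of every spot from Agilent Feature Extraction 10.7.3.1, among them a processed signal that is background subtracted, and log2 values made in GeneSpring, which lay within 0.01 of the log2 processed signals, after a shift per array, for at least 99.97% of probes. The version is from the submitters' processing notes. All samples were grouped by the strain in the labels. Here, control spots and 36 to 52 outlying spots per array were left out, spots of a probe were averaged, and processed signals were put on the log2 scale, set to 0 at the 75th percentile of each array and compared over 56605 probes with limma 3.58.1 (lmFit and eBayes, R 4.3.3, Benjamini-Hochberg adjustment). Summaries and plots were made in Python 3.11.15 (pandas 2.3.3, numpy 2.4.6, matplotlib 3.10.9). On simulated data for the BTBR/R and B6 comparison over 56583 probes, 96 of 100 probes changed by 1.5 on the log2 scale and 98 of 100 changed by 2 were called, with 4 unchanged probes. The changed probes were drawn from those detected on every array. Before the change both strains had the B6 mean and the same spread, so the strain difference in detection limit was not simulated. The counts therefore do not speak for dim probes.

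The interval, its members, the gene lists and the rule for naming genes were chosen with earlier results of these data known. Named were the genes with a called probe detected on all 8 arrays and their other detected probes, up to 8 genes called lower by a probe detected only on the B6 arrays or some BTBR/R arrays, ordered by the bound of the fold, the 4 detected genes nearest to Gatm on each side, the outermost probes at both ends, the 2 brightest genes of each list, and genes with calls in both directions. The last was 9130007G19Rik, whose probes were not detected on all arrays of both strains. Fam227b, and the lower genes without a fold other than 9130007G19Rik, were named outside this rule. Positions and names are those of the array annotation (mm9). Of the 388 members, 336 matched a symbol of the RefSeq table (GRCm38.p6) and 17 of these had another symbol; no position was taken from that table. The comparison was repeated without each mouse in turn, with a replicate block, without dim probes, with the trend and robust options of limma, with the methods' t-test, on the authors' log2 values, with quantile normalization, with median scaling, with percentile scaling over detected probes, and after normexp correction of the background (offset 50). All arrays shared 1 slide and 1 scan. No probe was saturated, and the 4 arrays per strain limit the precision. Replicates were separate mice, so the spread is between mice. The results of 1 member gene are not reported here; its probes stayed in the fit and in the counts and were left out of plots of single probes.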

Additional observations from a re-analysis of the deposited data

Results flagged for a closer look

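Among the named or differing probes, 133 groups of 4 mice were examined for a mouse that stood far from the other 3, by Dixon's ratio of gap to range, and 10 groups were found. Chance alone gives about 1 in 20. The values are scaled signals on the log2 scale. In B6 mice, replicate 4 stood at -3.34 for Spint1 (others -3.18 to -3.15) and at 1.45 for Ppip5k1 at 121172975 (others 1.39 to 1.40). B6 replicate 3 stood at -3.15 for Adal (others -2.99 to -2.96). B6 replicate 1 stood at -2.03 for Ppip5k1 at 121162146 (others -1.90 to -1.87), at -0.22 for Shf (others -0.072 to -0.058) and at 0.17 for Mfap1a (others 0.29 to 0.31). In BTBR/R mice, replicate 2 stood at 3.69 for Rtf1 (others 3.85 to 3.87), replicate 3 at 0.999 for Sord (others 0.67 to 0.70) and at -0.30 for TC1649435 (others -0.45 to -0.45), and replicate 4 at 0.14 for Shf (others -0.19 to -0.15). On the log2 scale the largest of these gaps concerned Sord and Shf, while the largest ratio of gap to range was that of TC1649435 (0.97). None of these genes was called.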

How the results depend on the processing

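The 12 called members detected on all 8 arrays numbered 11 or 12 in every alternative except normexp background correction, which called 7 of them, and 11 to 12 when 1 mouse was left out. The 87 called members (61 higher, 26 lower) became 29 (3 higher, 26 lower) when dim probes were left out. They became 32 (4 higher, 28 lower) with quantile normalization and 8 (2 higher, 6 lower) with normexp, and were 75 to 86 without any 1 mouse. Over all probes the 12697 calls became 1557, 2200 and 563 in the same settings and 11792 to 12929 without any 1 mouse. Of the 12697 calls, 11413 were higher and 1284 lower. In the same 3 settings the counts were 362 higher and 1195 lower, 544 and 1656, and 231 and 332. Fewer probes were tested when dim probes were left out; for the other settings the cause was not tested. Of the 12 probes, 7 kept their call in every alternative: Pak6, both Ivd probes, Exd1, Lcmt2, Ppip5k1 and Galk2. Those lost with normexp included Tmco5 (-0.81), Eif2ak4 (-0.69), Haus2 (-0.71) and Sqrdl (-0.98). Eif2ak4 was also lost without BTBR/R replicate 3. Gchfr, uncalled, was called without B6 replicate 1. AA467197 lost its call when any 1 of 6 mice was left out, and also with normexp, quantile normalization and the methods' t-test. No named value changed sign where it was called.

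Same-numbered mice of the strains did not vary together (correlations of their deviations 0.0028, -0.070, -0.045 and 0.16), so the numbers do not pair the samples. With replicate number as a block, 75 members were called, 11 of them detected on all 8 arrays, and 11693 probes in all. Detection limits the dim members, since the lowest detected signal was higher on the BTBR/R arrays.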
